A study of Mus musculus with 6 samples.

Results

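The genes described here copy the DNA of dividing red cell precursors or supply its building blocks. They are 41 named genes of origin licensing, helicase, polymerases, clamp loading, deoxynucleotide synthesis and chromatin assembly, and 40 of them were measured, among 18193 genes in all. Chaf1a is not analysed here. Each gene was read by the probe set that carries only its symbol and was brightest over the 6 arrays. The list was drawn up by function, with earlier results of these data known. The samples were CD71+Ter119+ cells, that is, cells bearing the transferrin receptor and an erythroid surface antigen, sorted from the bone marrow of female mice 6 weeks old. The 3 control mice were Bcl11a +/+. The 3 knockout mice were Bcl11a fl/fl EpoR-Cre+: both copies of Bcl11a carried sites for Cre recombinase, which was expressed from the erythropoietin receptor locus, so deletion is limited to cells that use that locus. Cre is named for the knockouts alone, and its effect cannot be told apart from that of Bcl11a. Each mouse gave 1 Affymetrix array. In sorted bulk cells, a change in the share of cells in S phase and a change in RNA per cell cannot be told apart.

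DNA replication starts where the origin recognition complex marks the DNA. Cdc6 and Cdt1 then load a ring of Mcm2 to Mcm7, the helicase that will unwind the duplex, and geminin blocks reloading until the next cycle. Cdc45, the GINS complex and Mcm10 switch the ring on, primase and polymerase alpha start each strand, and polymerases epsilon and delta extend them on the sliding clamp PCNA. Erythroid precursors divide several times while they fill with hemoglobin, and S phase is tied to the step at which they commit to terminal maturation. Bcl11a encodes a transcriptional repressor best known for silencing embryonic and fetal globin genes.

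Many of these genes are known targets of E2F factors, which bind sites of the type TTCCCGC and variants of it, and of NF-Y, which binds CCAAT. The RefSeq promoter table (GRCm38.p6, 250 bases before to 50 after a start) held 33 of the 40 genes. At least 1 match to the motif TTCCCGC, to the variant TTGGCGC, to the variant TTCGCGC or to the variant TTGCCGC stood on either strand in 21 of the 33 (63.6%), against 13.7% of protein-coding genes and 10.9% of all genes in the table. CCAAT stood in 21 of the 33 as well, against 42.3% of protein-coding genes. The 21 genes with an E2F-type match had a median log2 change of 0.084 between knockout and control, and the 12 without one had 0.16. A match describes the letters and is no evidence of binding. The stretches below are those of the genes with the largest changes, of Rrm1 as the partner of Rrm2, and of Mcm6, which had 5 E2F-type matches in its window and a change of 0.034. Capitals mark the E2F-type and CCAAT matches on either strand, and overlapping matches were counted separately.
Rrm2, GRCm38.p6 chr12:24708004-24708253 (plus strand), 250 bases ending 1 before the start: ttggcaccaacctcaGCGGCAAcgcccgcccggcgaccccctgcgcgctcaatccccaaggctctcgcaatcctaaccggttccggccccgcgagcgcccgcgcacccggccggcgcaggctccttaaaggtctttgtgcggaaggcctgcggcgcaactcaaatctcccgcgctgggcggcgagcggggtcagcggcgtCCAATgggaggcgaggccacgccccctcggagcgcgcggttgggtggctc
Rrm1, GRCm38.p6 chr7:102441585-102441694 (plus strand), 110 bases ending 1 before the start: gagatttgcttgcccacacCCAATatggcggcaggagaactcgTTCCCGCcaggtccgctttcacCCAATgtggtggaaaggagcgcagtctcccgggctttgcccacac
Mcm2, GRCm38.p6 chr6:88898781-88898960 (minus strand), 180 bases ending 1 before the start: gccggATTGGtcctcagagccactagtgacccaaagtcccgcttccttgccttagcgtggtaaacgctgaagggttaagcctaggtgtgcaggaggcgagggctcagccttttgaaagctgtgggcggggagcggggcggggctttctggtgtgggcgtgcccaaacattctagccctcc
Mcm6, GRCm38.p6 chr1:128359706-128359825 (minus strand), 120 bases ending 1 before the start: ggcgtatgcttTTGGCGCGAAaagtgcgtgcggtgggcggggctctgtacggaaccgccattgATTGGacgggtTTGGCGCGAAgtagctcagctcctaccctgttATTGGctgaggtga
Slbp, GRCm38.p6 chr5:33652575-33652694 (minus strand), 120 bases ending 1 before the start: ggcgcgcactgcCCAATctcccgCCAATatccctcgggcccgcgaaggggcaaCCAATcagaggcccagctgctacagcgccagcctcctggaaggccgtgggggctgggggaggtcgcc
Orc1, GRCm38.p6 chr4:108579415-108579444 (plus strand), 30 bases ending 10 before the start: tttcggttagtgGCGCGAAaagttttctcc

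The promoters of Rrm2 and Rrm1, whose products form 1 enzyme, both held an E2F-type and a CCAAT match. The stretches of Mcm2 and Slbp held CCAAT and no E2F-type match, although both genes are in the group with the largest changes. In the Mcm6 stretch, 4 E2F-type matches overlap in pairs, and each pair forms 1 of the longer runs of capitals. The Orc1 stretch is short, and 2 CCAAT matches of its window lie outside it. They begin 120 and 66 bases before the start. The start used for Orc1 is not the edge of the gene in RefSeq.

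Across the series, array medians lay between 67.5 and 70.9 on the linear intensity scale. The fit called 63 of 45037 probe sets higher and 3 lower in the knockouts (limma, Benjamini-Hochberg adjusted p threshold of 0.05), which is 0.14% and 0.00666%. None of the 7 probe sets of Bcl11a passed, with log2 changes from -0.40 to 0.32, and their place relative to the deleted part was not checked. The embryonic globin gene Hbb-y, a target of Bcl11a repression, stood at 67.4 to 80.9 in the controls and at 19266 to 20104 in the knockouts. The summed intensity of all 18193 genes was 13432423 to 14100994 in the controls and 14358870 to 14737672 in the knockouts, so the sums of markers below stand beside a total that was higher in every knockout. Of 7 measured erythroid markers, 5 stood above 0 in log2 change, and their summed intensity was 64394 to 77578 in the controls and 80357 to 87362 in the knockouts. Neutrophil markers summed to 186414 to 187322 and 171994 to 178440 over 9 genes, 8 with changes below 0. Pre-B cell markers summed to 17009 to 19812 and 13248 to 17131 over 8 genes, 7 below 0. Basophil and mast cell markers summed to 5999 to 6322 and 3971 to 5457 over 6 genes, 5 below 0. Stem and progenitor markers summed to 10304 to 10433 and 6805 to 8572 over 8 genes, all below 0. Macrophage, megakaryocyte and T and NK cell markers, with 9, 6 and 4 genes measured, overlapped between the groups in summed intensity, as did the pre-B cell markers. No marker was at 0 and the arrays carry no detection calls. The part of these cells in the results below was not tested.

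No replication gene passed the test between knockout and control mice, and all of the changes were small. Of the 40 genes, 30 had a log2 change above 0 and 10 below, with a median of 0.11 and a range from -0.22 (Rfc3) to 0.50 (Orc1). The 95% interval of every one of the 40 changes lay inside a 2-fold change in either direction, and that of 35 lay inside 1.5-fold. The 5 with a wider interval were Orc1, Cdc6, Mcm2, Rrm2 and Slbp, each on the side of higher levels in the knockout. By limma, 0 of 40 rose and 0 fell, against 0.147% of all probe sets called. The lowest adjusted p was 0.288, for Orc1. At an unadjusted p under 0.05, Orc1, Rrm2, Mcm2 and Slbp were higher (4 of 40, against 7.21% of all probe sets) and none was lower (against 5.21%).

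The groups did not overlap in 9 genes that stood higher in the knockouts (22.5%, against 10.6% of all probe sets and 12.3% of genes) and in 2 that stood lower (against 8.91% of probe sets). The 9 were Orc1, Mcm2, Mcm10, Gins3, Prim2, Fen1, Rrm1, Rrm2 and Slbp, and the 2 were Pold2 and Rfc2. For each of these 11 the two-sided exact permutation p was 0.1, the smallest that 3 mice against 3 can give. Over all 18193 genes the median change was -0.0012 and 9054 lay above 0. The 40 genes were brighter than most, with a median intensity percentile of 91.9 against 61.4 over all genes. The shares given beside the counts of genes with groups apart are therefore not from genes of like brightness. The lean toward higher levels depended on scaling: after quantile normalization 22 of 40 lay above 0 with a median of 0.029, and after cyclic loess normalization 24 with a median of 0.036. With an intensity trend and robust variance moderation 1 of the 40, Rrm2, was called higher (adjusted p = 0.0254) and none lower, against 2.68% and 0.531% of all probe sets, or 3.21% in either direction. Among the brightest 25% of probe sets, 2 of 39 were called higher, Orc1 (adjusted p = 0.0353) and Rrm2 (adjusted p = 0.0451), against 11.6% of those probe sets.

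**Figure D1:**
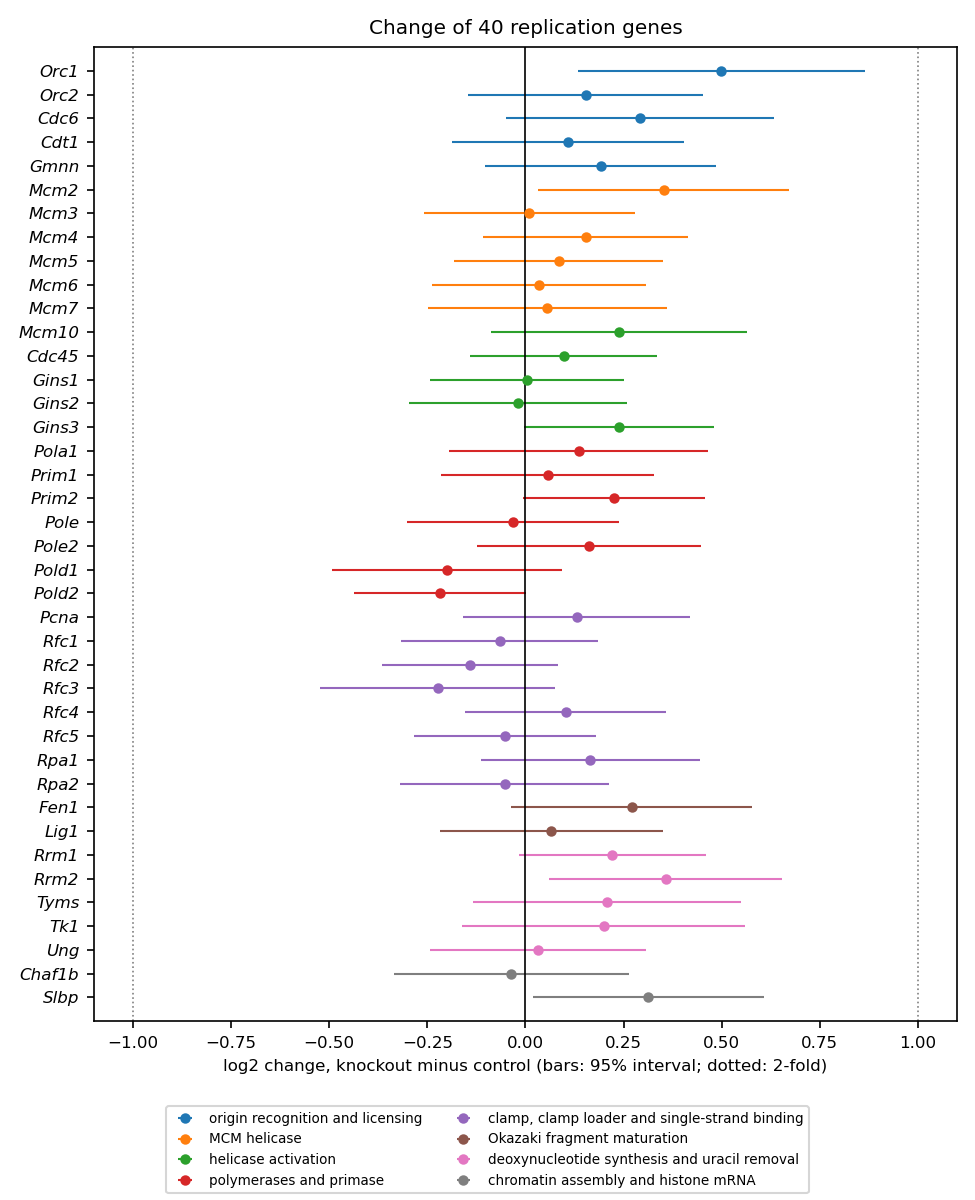
Log2 change between 3 knockout and 3 control mice for the 40 measured replication genes, coloured by role, with 95% intervals from the fit and dotted lines at a 2-fold change. All intervals lie between the dotted lines, the points of 30 genes lie above 0, and those of Orc1, Rrm2, Mcm2 and Slbp lie farthest to the right.

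The spread of log2 values was wider among the knockout mice than among the controls in 28 of the 40 genes (70%), against 44.3% of all genes. Knockout mouse 3 had the highest intensity of all 6 mice in 32 of the 40 genes, whereas it was the highest in 18.0% of the 18193 genes. Among the knockouts alone, mouse 3 was the highest in 36 genes and mouse 1 the lowest in 35. Knockout mouse 3 lay above all controls in 32 genes and knockout mouse 2 in 26, against 28.2% and 29.7% of all genes. Knockout mouse 1 lay above all controls in 10 genes (25%), below them in 13 (32.5%) and within their range in 17 (42.5%), near the shares over all genes of 27.8%, 25.6% and 46.6%.

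The median over the 40 genes of each mouse's log2 level minus the control mean was -0.015 in knockout mouse 1, 0.11 in mouse 2 and 0.23 in mouse 3. In the controls these medians were 0.0015, -0.022 and 0.034. Over all genes the 6 medians lay between -0.0083 and 0.010. The median SD of log2 values was 0.136 within the knockouts and 0.0843 within the controls for the replication genes, and 0.149 and 0.171 over all genes. Without knockout mouse 3, 24 of 40 genes lay above 0 with a median of 0.049, and without knockout mouse 1, 34 did with a median of 0.16. Erythroid markers were also lowest among the knockouts in mouse 1, with medians of 0.24, 0.44 and 0.45 in mice 1 to 3, while stem and progenitor markers had -0.11, -0.32 and -0.49. In control mice 1 to 3 the erythroid medians were 0.21, -0.27 and 0.061, so control mouse 1 lay near knockout mouse 1. The stem and progenitor medians of the controls were -0.029, 0.060 and -0.0073. The part of these cell stages in the spread was not tested.

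**Figure D2:**
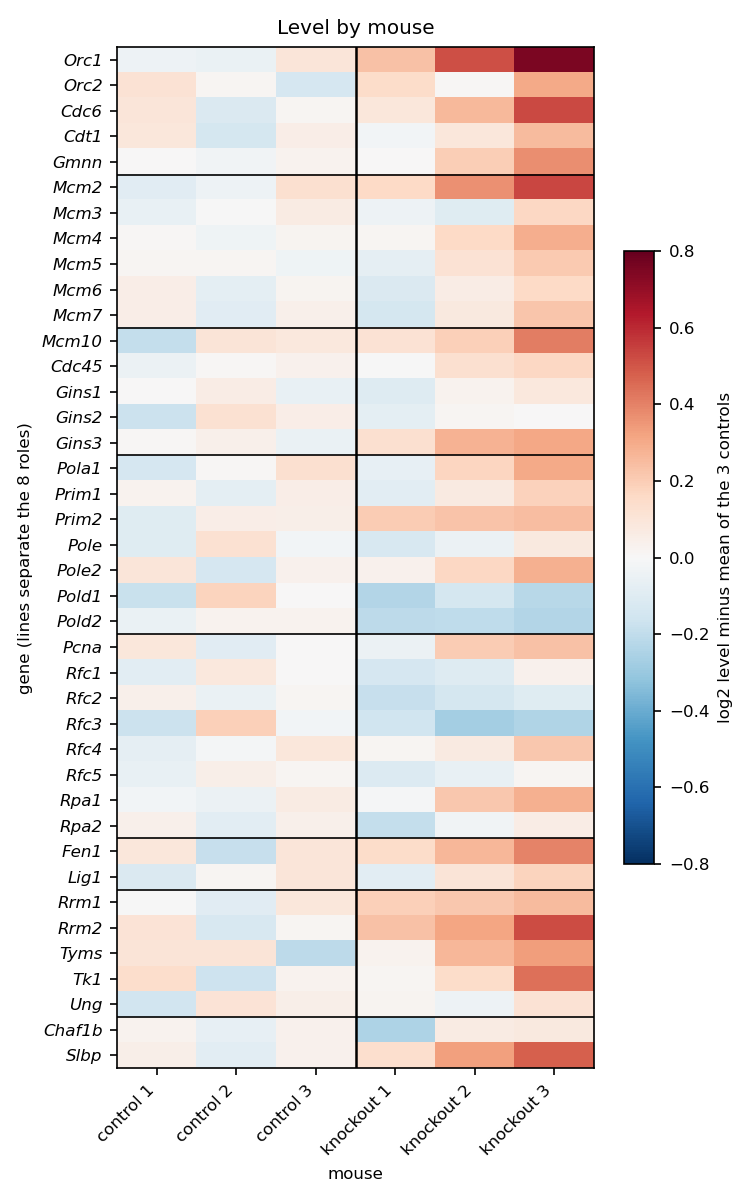
Log2 level minus the mean of the 3 controls for each of the 40 genes (rows, separated by role) in each mouse (columns). The column of knockout mouse 3 is the reddest, with 32 genes at their highest of the 6 mice, while the column of knockout mouse 1 holds 10 genes above and 13 below all controls, near the shares over all genes. The Pold1, Pold2, Rfc2 and Rfc3 rows are blue in all 3 knockouts.

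Origin recognition and licensing genes all had changes above 0, and none of the 5 passed. Orc1, the subunit of the origin recognition complex whose level cycles in many cells, had intensities of 299, 297 and 330.2 in control mice 1 to 3 and 366, 447 and 529.5 in knockout mice 1 to 3. All 3 knockouts lay above all 3 controls, with mouse 3 highest and mouse 1 nearest the controls. Its log2 change was 0.50 ± 0.15 (SE; 95% interval from 0.13 to 0.86; adjusted p = 0.288). On the second probe set of Orc1 the change was 0.15 (adjusted p = 0.765). Cdt1, the loader that geminin inhibits, had intensities of 4867, 4145 and 4754 in the controls and 4511, 4881 and 5468 in the knockouts. The groups overlapped, and its change was 0.11 ± 0.12 (SE, adjusted p = 0.767). Cdc6, the other loader, had 2058, 1776 and 1945 in the controls and 2052, 2300.0 and 2775 in the knockouts, and the groups overlapped because knockout mouse 1 lay just under control mouse 1. Its change was 0.29 ± 0.14 (SE, adjusted p = 0.467). Geminin (Gmnn) and Orc2 had changes of 0.19 and 0.15.

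All 6 helicase subunits, which form a ring with 1 copy of each, had changes above 0 on the deposited scale, from 0.010 to 0.35, but 4 of them lay below 0 after quantile normalization, and none passed. Mcm2 had intensities of 3245, 3359 and 3767 in control mice 1 to 3 and 3848, 4451 and 4998 in knockout mice 1 to 3. The lowest knockout lay just above the highest control. The log2 change of Mcm2 was 0.35 ± 0.13 (SE; 95% interval from 0.031 to 0.67; adjusted p = 0.365), and its second probe set had 0.24 (adjusted p = 0.500). Mcm7 had intensities of 8712, 7898 and 8639.7 in the controls and 7640.0, 8887 and 9829 in the knockouts. The controls lay inside the range of the knockouts, since knockout mouse 1 was the lowest and mouse 3 the highest of the 6. The change of Mcm7 was 0.056 ± 0.13 (SE, adjusted p = 0.900). Mcm3 and Mcm6 had changes of 0.010 and 0.034, and Mcm4 and Mcm5 had 0.15 and 0.084. After quantile normalization Mcm3, Mcm5, Mcm6 and Mcm7 lay below 0, and after cyclic loess normalization Mcm3, Mcm6 and Mcm7 did. On the brightest probe sets, knockout mouse 3 was the highest of the 6 mice for every subunit. The second probe set of Mcm4 had 2291, 2651 and 2830 in the controls and 3283, 3008 and 3164 in the knockouts. Knockout mouse 1 was the highest there, the groups did not overlap, and the change was 0.29 (adjusted p = 0.395). Whether the changes of the subunits differ from each other was not tested.

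Probe sets of 1 gene did not always have changes of 1 sign. The brightest Mcm6 probe set had 5348, 4894 and 5250.3 in the controls and 4761, 5369.7 and 5775 in the knockouts. A second one had 2591, 3054 and 2908 in the controls and 3411, 3113 and 3572 in the knockouts, with every knockout above every control and a change of 0.24 (adjusted p = 0.457). The remaining one had 31.1, 8.93 and 12.7 in the controls and 5.16, 7.8 and 1.74 in the knockouts, and its change was -0.64 (adjusted p = 0.389). Every knockout lay below every control there, at readings near the bottom of the scale. Cdt1 was similar, where 1 of 3 probe sets, at 1.04 to 18.2, had a change of -0.62 (adjusted p = 0.264). The other 2 probe sets of Cdt1 had 0.11 and 0.12. The brightest of the 5 probe sets of Mcm3 had 1720.0, 1791 and 1877 in the controls and 1746, 1679 and 2012 in the knockouts, with overlapping groups. Its dimmest had 264, 364 and 314 in the controls and 488, 388 and 392 in the knockouts, with every knockout above every control and a change of 0.42 (adjusted p = 0.363), while the other 3 had -0.086 to -0.020. In all, 89 probe sets read the 40 genes, 0 passed by limma and their median change was 0.066. Of 31 genes with several probe sets, 19 had all of them on 1 side of 0 and 12 did not.

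The factors that switch the helicase on were mixed. Gins3, a subunit of the GINS complex, had intensities of 316, 323 and 301 in control mice 1 to 3 and 344, 383 and 392 in knockout mice 1 to 3. All knockouts were higher than all controls, and the change was 0.24 ± 0.10 (SE, adjusted p = 0.410). Its second probe set had -0.0034. Mcm10, which helps the active helicase leave the origin, had intensities of 378, 468 and 462 in the controls and 471, 498 and 582 in the knockouts. The groups were apart by a narrow margin, and the low value of control mouse 1 widened the spread. Its change was 0.24 ± 0.14 (SE, adjusted p = 0.527). Its other probe sets, both dim at 36.25 to 78.66, had changes of 0.013 and -0.32. Cdc45, which travels with the helicase, had 923, 959 and 974 in the controls and 948, 1043 and 1071 in the knockouts, with overlapping groups and a change of 0.10 ± 0.10 (SE, adjusted p = 0.739). Gins1 and Gins2, the partners of Gins3 in the same complex, had 0.0041 and -0.019.

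Polymerase subunits lay on both sides of 0. Prim2, the large subunit of primase, had intensities of 906, 1006 and 1001 in the controls and 1118, 1137 and 1155 in the knockouts. All 3 knockouts lay close together above the controls. The change of Prim2 was 0.23 ± 0.10 (SE, adjusted p = 0.415). On the other probe sets of Prim2 the groups overlapped. Their changes were 0.039 and, on a dim one at 24.4 to 68.0, 0.43. Its partner Prim1, the catalytic subunit, had 2677, 2480.3 and 2719 in the controls and 2469.7, 2759 and 2980.3 in the knockouts, with the controls inside the range of the knockouts, and a change of 0.056. Pold2, an accessory subunit of polymerase delta, had intensities of 791, 837 and 839 in control mice 1 to 3 and 708, 711 and 695 in knockout mice 1 to 3. It was 1 of the 2 genes in which every knockout lay below every control, and the 3 knockouts differed from each other by less than the controls did. Its change was -0.22 ± 0.091 (SE; 95% interval from -0.44 to 0.0019; adjusted p = 0.406). Pold1, the catalytic subunit of the same polymerase, had a change of -0.20 with overlapping groups. The polymerase epsilon subunits Pole and Pole2 had -0.032 and 0.16, and Pola1, the catalytic subunit of polymerase alpha, had 0.14.

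The clamp and its loader lay on opposite sides of 0, apart from Rfc4. Pcna, the sliding clamp, had intensities of 15515, 13683 and 14577 in the controls and 14102, 16764 and 17172 in the knockouts. Knockout mice 2 and 3 lay above the controls and knockout mouse 1 among them, and the change was 0.13 ± 0.12 (SE, adjusted p = 0.709). Rfc2, a subunit of the clamp loader, had 2269, 2118 and 2224 in the controls and 1937, 1996 and 2055 in the knockouts. All knockouts were lower than all controls, by a small step, and the change was -0.14 ± 0.093 (SE, adjusted p = 0.582). On the other probe sets of Rfc2 the groups overlapped, with changes of 0.027 and -0.057. Rfc3, another subunit, had 668, 865 and 743 in the controls and 672, 623 and 637 in the knockouts. The control values were spread more widely than those of the knockouts, the groups overlapped, and the change was -0.22 ± 0.12 (SE, adjusted p = 0.518). Rfc1, Rfc5 and Rfc4 had -0.066, -0.052 and 0.10, so 4 of the 5 loader subunits lay below 0. The subunits of the single-strand binding protein, Rpa1 and Rpa2, had 0.16 and -0.053.

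Fen1, the nuclease that trims Okazaki fragments, had intensities of 2954, 2434 and 2959.8 in the controls and 3074, 3338 and 3649 in the knockouts. All knockouts lay above all controls, and control mouse 2 stood well below the other controls. The change of Fen1 was 0.27 ± 0.13 (SE, adjusted p = 0.453), and both of its probe sets had 0.27. Lig1, the ligase that seals the fragments, had 0.066.

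Among the 40 genes, the 5 of deoxynucleotide synthesis and uracil removal all stood above 0. Further deoxynucleotide genes, given with the pathway lists below, lay on both sides of 0. Rrm2, the regulated subunit of ribonucleotide reductase, had intensities of 11830.1, 10038 and 11061 in control mice 1 to 3 and 12913, 13604 and 15729.9 in knockout mice 1 to 3. Every knockout lay above every control, and mouse 3 was again the highest. Its change was 0.36 ± 0.12 (SE; 95% interval from 0.060 to 0.65; adjusted p = 0.332). Rrm2 had 3 probe sets, with changes of 0.36, 0.42 and 0.44 and adjusted p from 0.236 to 0.335. Rrm1, the large subunit that pairs with it, had intensities of 4028, 3788 and 4307 in the controls and 4612, 4693 and 4819 in the knockouts. The knockouts lay close together above the controls, and the change was 0.22 ± 0.10 (SE, adjusted p = 0.428). Its other probe sets had changes of 0.13 (adjusted p = 0.704) and, on a dim one at 16.7 to 31.6, -0.29 (adjusted p = 0.444).

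Tk1, the thymidine kinase of S phase, had 2735, 2215 and 2528 in the controls and 2506, 2753 and 3372 in the knockouts. Knockout mouse 1 lay among the controls, mouse 2 just above them and mouse 3 well above, and the change was 0.20 ± 0.15 (SE, adjusted p = 0.638). Tyms, thymidylate synthase, had a change of 0.21 with overlapping groups. A probe set that the annotation assigns to both Tyms and its pseudogene Tyms-ps had 1646, 1611 and 1716 in the controls and 1874, 2010.0 and 2192 in the knockouts. It named no gene by the rule, its groups did not overlap, and its change was 0.28 (adjusted p = 0.354). Ung, which removes uracil from DNA, had 0.033.

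Slbp, which binds the stem-loop of replication-dependent histone mRNAs, had intensities of 6326, 5761 and 6260.1 in control mice 1 to 3 and 6714, 7676 and 8505 in knockout mice 1 to 3. All knockouts lay above all controls, with mouse 1 nearest to them. The change was 0.31 ± 0.12 (SE; 95% interval from 0.019 to 0.61; adjusted p = 0.377). Its other 2 probe sets had changes of -0.13 and, on a dim one at 1.18 to 11.4, -0.013. Chaf1b, a subunit of the histone chaperone CAF-1, had -0.036.

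**Figure D3:**
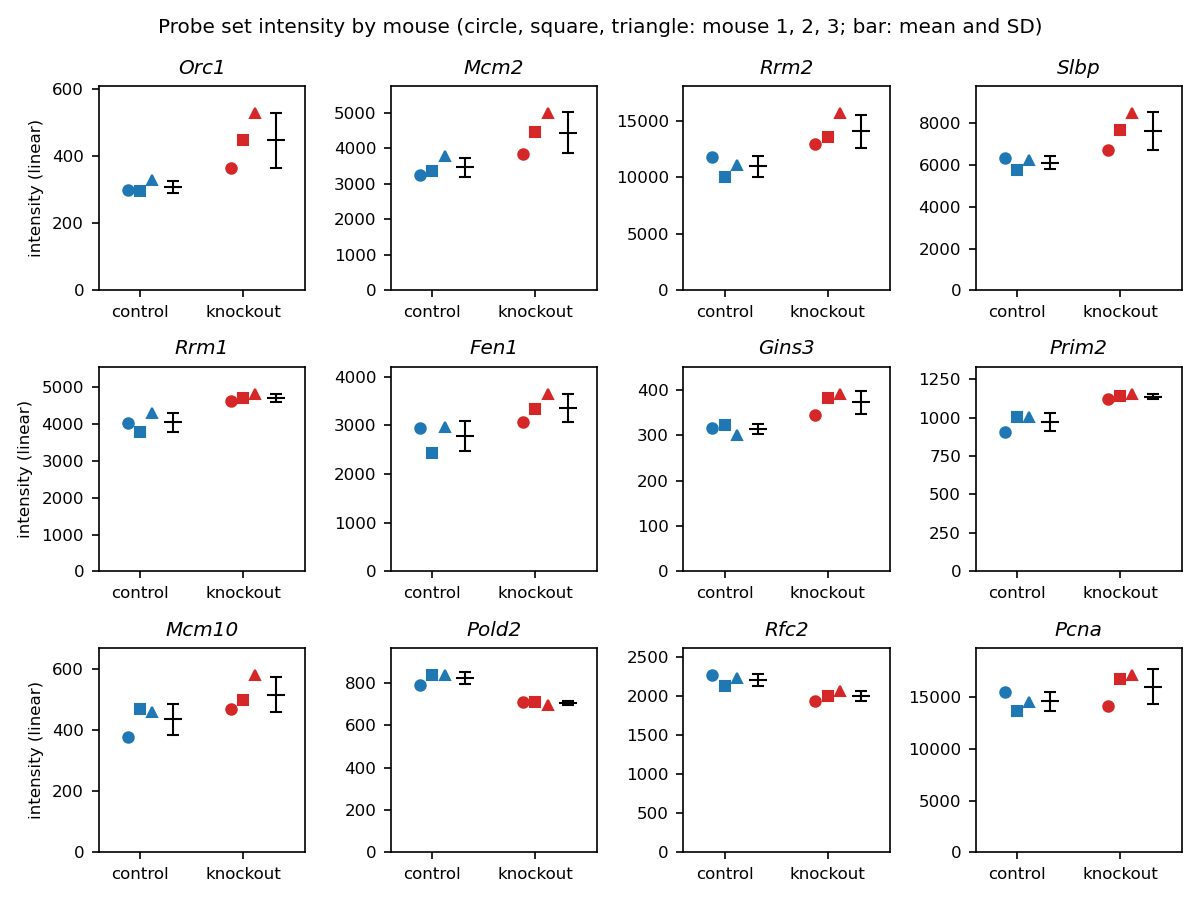
Linear probe set intensity of 12 replication genes in each mouse, with the mean and SD of each group of 3 (axes start at 0). In the first 9 panels the knockouts lie above the controls, in Pold2 and Rfc2 below them, and Pcna is shown as a gene whose groups overlap. Knockout mouse 1 (circle) is the knockout nearest the controls in each of the first 9 panels.

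Other genes of the pathway, from lists chosen by function, did not pass either. Over all 18193 genes, for comparison with the counts below, 8.18% had an unadjusted p under 0.05 with higher levels and 4.53% with lower levels, 12.3% had groups apart with the knockouts higher and 9.23% with the knockouts lower, and 49.8% lay above 0. Of 34 further replisome genes, 0 passed by limma (3 had an unadjusted p under 0.05 with higher levels, 8.82% of the list and near the share over all genes), 28 lay above 0 and the median was 0.085. The groups were apart with the knockouts higher in 8 (23.5%) and lower in 1 (2.94%). The size of the replisome median depended on scaling. After quantile normalization 25 of the 34 lay above 0 with a median of 0.0255, and after cyclic loess normalization 27 with a median of 0.0411. Chtf18, a subunit of the alternative clamp loader that installs PCNA for sister chromatid cohesion, had intensities of 226, 226 and 232 in control mice 1 to 3 and 385, 478 and 596 in knockout mice 1 to 3. The controls were nearly identical and all knockouts were higher. Its change was 1.02 ± 0.17 (SE; 95% interval from 0.62 to 1.42; adjusted p = 0.110), larger than that of any of the 40 genes, and it was called with a trend and robust moderation (adjusted p = 0.00105), with a pseudocount of 64 (adjusted p = 0.0220) and when only the brightest 50% were kept (adjusted p = 0.0149). Top1, the topoisomerase that relaxes supercoils ahead of the fork, had 5872, 4665 and 5153 in the controls and 6738, 7349 and 7542 in the knockouts, with no overlap and a change of 0.47 ± 0.12 (SE, adjusted p = 0.236). Wdhd1 and Orc6 had 0.34 and 0.26.

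Of 30 further genes of nucleotide synthesis, 0 passed by limma. At an unadjusted p under 0.05, 1 was higher and 1 lower (3.33% each, below both shares over all genes). The groups were apart with the knockouts higher in 2 (6.67%, against 12.3% of all genes) and lower in 7 (23.3%, against 9.23%). In all, 21 lay below 0, with a median of -0.098. Dck, the deoxycytidine kinase that salvages deoxynucleosides, had intensities of 6976, 6859 and 7306 in the controls and 7988, 8204 and 8935 in the knockouts. Its groups did not overlap, and its change was 0.25 ± 0.10 (SE, adjusted p = 0.387). Atic, of purine synthesis, had 1236, 1273 and 1275 in the controls and 1139, 1025 and 990.2 in the knockouts. All knockouts lay below all controls, and the change was -0.26 ± 0.10 (SE, adjusted p = 0.373). Prps2 and Mthfd1, of ribose phosphate and folate one-carbon metabolism, had -0.29 and -0.24. Of the other genes that act on deoxynucleotides, Dguok and Samhd1 had 0.14 and 0.21. Dctd, Dctpp1, Rrm2b, Tk2, Dut and Dtymk had -0.39, -0.18, -0.16, -0.14, -0.11 and -0.014.

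Of 9 measured genes of replication-coupled chromatin, 0 passed by limma (0 higher and 1 lower, or 11.1%, at an unadjusted p under 0.05), and the median was 0.054. The groups were apart with the knockouts higher in 0 and lower in 2 (22.2%, against 9.23% of all genes). The median was -0.034 without knockout mouse 3 and -0.017 without control mouse 2. Hells, a chromatin remodeller needed for DNA methylation, had 874, 1133 and 1099 in the controls and 867, 748 and 723 in the knockouts, with all knockouts below all controls and a change of -0.40 ± 0.14 (SE, adjusted p = 0.344). Nasp, a histone chaperone, had -0.17, and Asf1b and Rbbp4 had 0.23 and 0.18.

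Of 12 S-phase cyclins, kinases and E2F genes, 0 passed by limma, 10 lay above 0 and the median was 0.18. At an unadjusted p under 0.05, 3 were higher (25%, against 8.18% of all genes). The groups were apart with the knockouts higher in 5 (41.7%, against 12.3%) and lower in 0. The cyclins Ccne2, Ccne1 and Ccna2 had 0.62, 0.46 and 0.33, and E2f8, an E2F repressor, had 0.31. Of 24 mitotic genes, 0 passed by limma, 17 had an unadjusted p under 0.05 with higher levels (70.8%, against 8.18% of all genes), 19 had groups that did not overlap with the knockouts higher (79.2%, against 12.3%) and the median was 0.34. With a trend and robust moderation 14 of the 24 were called higher, against 1 of the 40 replication genes and 2.68% of all probe sets. Tpx2, Plk1, Birc5 and Anln, of spindle assembly and cell division, had 0.56, 0.40, 0.38 and 0.47. The lists were not tested against each other. The medians of knockout mice 1, 2 and 3 were 0.24, 0.38 and 0.44 for the mitotic genes and -0.015, 0.11 and 0.23 for the replication genes, with mouse 1 lowest and mouse 3 highest in both.

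**Figure D4:**
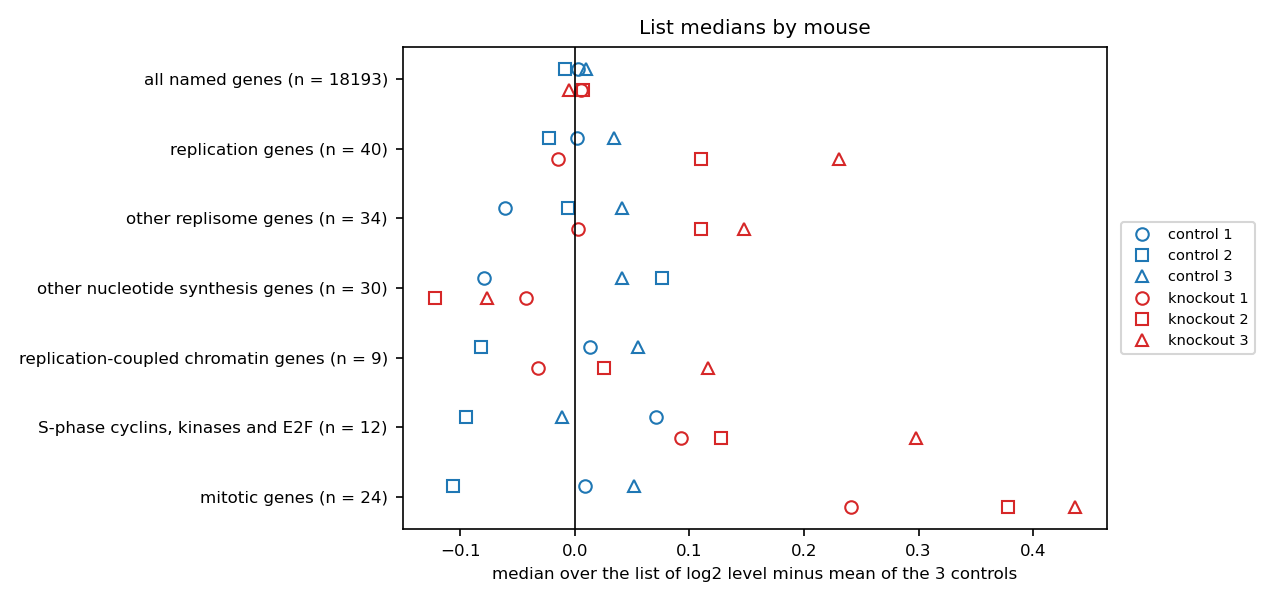
Median over each list of log2 level minus the mean of the 3 controls, for each mouse (blue controls, red knockouts; circle, square and triangle are mice 1 to 3). For the 40 replication genes knockout mouse 1 lies among the controls at -0.015 and mouse 3 apart at 0.23, whereas for the 24 mitotic genes all 3 knockouts lie above the controls, and all named genes lie near 0.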

How the data were processed

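RNA isolated with Trizol was labelled with biotin and put on Affymetrix arrays, 1 per mouse, per the labels' protocols. The authors deposited a linear intensity for each probe set and array. The sources used here do not state the probe summary, background correction or scaling. The array annotation gave 1 symbol for 34945 of 45037 probe sets, several for 932 and none for 9160. Of the single-symbol ones, 34741 matched a RefSeq gene (GRCm38.p6), used for names. Array log2 medians and interquartile ranges differed by at most 0.0567 and 0.0699, so values were not normalized again.

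Intensities became log2(intensity + 16), which understates changes of dim probe sets. The test was limma's (version 3.58.1, R 4.3.3; eBayes without trend, two-sided; prior df 2.42) between 3 and 3 mice, with p-values adjusted by Benjamini-Hochberg over the 45037 probe sets. Changes are knockout minus control. P-values measure the spread between mice, which the titles number separately, and 3 per group limits the precision. The fit was tested on simulated data.

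The genes and lists were chosen with earlier results of these data known, and no list was tested as a set. Genes given in all arrays were, per role, the brightest and the one with the smallest p, those with groups apart or an unadjusted p under 0.05, and those with opposed probe sets. Per pathway list, up to 4 genes by p were named. Cdc6, Tk1, the probe set shared by Tyms and Tyms-ps, and the further deoxynucleotide genes were added after their values were seen. Alternatives were quantile, median and cyclic loess normalization, pseudocounts (1, 64), keeping only the brightest 50% or 25%, a trend with robust moderation, array weights, other probe set rules, a replicate block and leaving out each mouse. Promoters were searched with Python 3.11.15.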

Additional observations from a re-analysis of the deposited data

How the results depend on the processing

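The 40 replication genes kept a median above 0 under every alternative run, between 0.029 (quantile normalization) and 0.16 (without knockout mouse 1). Genes called past the threshold were 0 of 40 in each direction, except 2 higher in the brightest 25% of probe sets and 1 with a trend and robust moderation. Without detection calls, signal over background is unknown, which limits the dim probe sets. Over all probe sets, 63 rose and 3 fell; the counts were 38 and 0 with a pseudocount of 1, 508 and 50 with 64, 708 and 145 in the brightest 50%, 1302 and 352 in the brightest 25%, and 1206 and 239 with a trend and robust moderation. Falls were 5 with array weights, 5 when the probe sets of a gene were averaged and 7 with 1 probe set per gene. Leaving out a mouse gave 27 to 41 rises and 0 to 1 falls. Replicate numbers did not pair the mice (correlations of deviations -0.0345, -0.0141 and -0.0402), and with the replicate block 14 probe sets rose and 0 fell.

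Of the further lists, replisome genes had 1 rise with a pseudocount of 64, 1 in the brightest 50%, 1 in the brightest 25% and 2 with a trend and robust moderation. Mitotic genes had 1, 2, 13 and 14 rises under these 4 settings. Over the probe sets tested, the rises were 508 of 45037, 708 of 22519, 1302 of 11260 and 1206 of 45037. S-phase cyclins, kinases and E2F genes had 2 rises in the brightest 25% and 2 with a trend. Nucleotide synthesis genes had 1 fall in the brightest 25% and 1 rise with a trend. The replication-coupled chromatin median was -0.044 after quantile normalization and ran from -0.034 to 0.11 on leaving out a mouse. The causes were not tested.

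Of 1078 gene values under the alternatives, 1014 kept their side of 0 and of the threshold, 25 newly passed and 39 changed sign, none of them called. After quantile normalization these were Cdt1 (-0.008), Mcm3 (-0.063), Mcm5 (-0.037), Mcm6 (-0.093), Mcm7 (-0.039), Gins1 (-0.061), Prim1 (-0.036) and Lig1 (-0.033). After cyclic loess they were Mcm3 (-0.048), Mcm6 (-0.049), Mcm7 (-0.039), Gins1 (-0.033), Prim1 (-0.011) and Lig1 (-8e-04). Gins2 had 4e-04 after median centring and Mcm3 had -0.018 with array weights. With the mean of all probe sets they were Cdt1 (-0.13), Mcm6 (-0.12), Mcm10 (-0.021), Cdc45 (-0.033) and Chaf1b (0.011). On leaving out a mouse, ranges crossed 0 for Mcm3 (-0.067 to 0.062), Ung (-0.045 to 0.086), Mcm6 (-0.029 to 0.11), Gins2 (-0.11 to 0.043), Pole (-0.088 to 0.028), Gins1 (-0.037 to 0.059), Rpa2 (-0.11 to 0.016), Chaf1b (-0.092 to 0.070), Mcm7 (-0.029 to 0.15) and Prim1 (-0.0071 to 0.13).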
